A study of Mus musculus with 12 samples.

Results

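The 43 genes described here encode the machinery that carries a cell from the first gap phase through DNA synthesis into mitosis: 11 cyclins and cyclin-dependent kinases, 2 E2F transcription factors, 14 origin licensing and helicase proteins, 10 DNA synthesis and nucleotide proteins, and 6 mitotic proteins and proliferation markers. They were chosen by name with earlier results of these data known, so the shares given below describe the set and do not test it. A probe set was taken for a gene only where the platform annotation gave that gene as its single symbol. That rule found 98 probe sets for 42 of the 43 genes, and 41 genes passed the filter on dim signals, of 12136 genes tested in all. Ccnb1, which encodes a mitotic cyclin, has no probe set with that single symbol in the annotation used and was not analysed here. The 4 probe sets of Tyms, thymidylate synthase, lay under the threshold for dim signals on all 12 arrays. The threshold was the median of all non-control values, 5.77 on the log2 scale.

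RNA came from 3T3-L1 cells, a mouse preadipocyte line that forms fat cells in culture. Differentiation was started by a 48 h hormone mix of dexamethasone (1 µM), the phosphodiesterase inhibitor IBMX (0.5 mM) and insulin (5 µg/ml). The labels also list 10% fetal serum for all 12 samples. The fat cells were used on days 8 to 10, after 12 h without serum in medium with 0.2% albumin. The 4 groups of 3 arrays each were cells given DMSO, the vehicle, and cells given 5 µM berberine, a plant alkaloid, for 3 h, 6 h or 12 h. All groups shared the line, the induction and the serum-free step, and the question was how gene expression changed under berberine. The labels do not say how long the DMSO cells were held, so berberine and time in culture cannot be told apart, and they do not say whether the 3 replicates were separate cultures, so the p-values cover the spread between arrays, which may be technical. The 3 comparisons with DMSO share the same DMSO arrays.

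In a dividing cell, D-type cyclins with their kinases and then cyclin E with Cdk2 release E2F transcription factors from the retinoblastoma proteins, and E2F drives many genes of DNA synthesis. Before that synthesis the origin recognition complex, Cdc6 and Cdt1 load the ring of Mcm2 to Mcm7 on DNA, and Cdc45 and the GINS proteins turn the ring into the active helicase. Many mitotic genes are switched on later, through a promoter element called the CHR and nearby CCAAT boxes. 3T3-L1 preadipocytes re-enter the cell cycle for a short time after hormonal induction and then leave it as they fill with fat.

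RefSeq promoter windows of GRCm38.p6, each running 250 bases before to 50 bases after a gene's start, were given for 32 of the 41 genes. The E2F core was spelled as TTCCCGC, as the variant form TTGGCGC or as the variant form TTCGCGC. These 3 cores, the CHR (spelled TTTGAA) and the CCAAT box were searched on both strands, and overlapping copies were counted separately. Any E2F core stood in 17 of the 32 genes (53.1%), against 9.2% of 27025 genes with a window. The CHR and a CCAAT box stood together in 9 of the 32 (28.1%), against 7.97% of all genes. The CHR, with or without a CCAAT box, stood in 9 (28.1%), against 20.2% of all genes. The CCAAT box stood in 26 (81.2%), against 41.1% of all genes. By role, E2F cores were found in 7 of 11 licensing and helicase genes and 6 of 8 DNA synthesis genes, while the CHR was found in 4 of 5 mitotic genes and 0 of 8 DNA synthesis genes. A match describes the letters of the window and shows neither binding nor a cause. Of the 14 genes called lower at 12 h 11 had a window and 5 of those held an E2F core; of the other 27 tested genes, 21 had a window and 12 held one. The windows of Aurkb, Ccna2, Ccnd1, Ccnd2, Ccne2, Gins1, Gins2, Mcm4 and Pole were not in the table used.

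Promoter windows of 6 genes show these layouts beside the values that follow: Cdc6, Cdk2 and Mcm3 carry E2F cores and no CHR, and Ccnb2, Cdk1 and Mki67 carry the CHR with CCAAT boxes. They lie on GRCm38.p6 at chr11:98907901-98908200 (plus strand), chr10:128705002-128705301 (minus strand), chr1:20820263-20820562 (minus strand), chr9:70421505-70421804 (minus strand), chr10:69352863-69353162 (minus strand) and chr7:135716330-135716629 (minus strand). Each is written 5′ to 3′ on the gene's own strand, and capitals mark every E2F core, CHR and CCAAT box in either orientation, so GCGGGAA is TTCCCGC read from the other strand and ATTGG is CCAAT.
Cdc6: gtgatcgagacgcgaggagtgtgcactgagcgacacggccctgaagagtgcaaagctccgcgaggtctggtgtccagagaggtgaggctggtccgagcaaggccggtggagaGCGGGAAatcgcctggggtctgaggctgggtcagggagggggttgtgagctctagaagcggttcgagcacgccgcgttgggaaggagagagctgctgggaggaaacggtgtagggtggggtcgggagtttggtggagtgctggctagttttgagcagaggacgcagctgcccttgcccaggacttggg
Cdk2: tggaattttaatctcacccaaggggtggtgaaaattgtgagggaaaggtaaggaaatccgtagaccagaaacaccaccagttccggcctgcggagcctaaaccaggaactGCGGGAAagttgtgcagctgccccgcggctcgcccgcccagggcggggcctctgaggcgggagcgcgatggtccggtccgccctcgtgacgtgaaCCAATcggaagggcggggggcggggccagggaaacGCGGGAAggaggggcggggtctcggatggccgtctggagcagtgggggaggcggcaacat
Mcm3: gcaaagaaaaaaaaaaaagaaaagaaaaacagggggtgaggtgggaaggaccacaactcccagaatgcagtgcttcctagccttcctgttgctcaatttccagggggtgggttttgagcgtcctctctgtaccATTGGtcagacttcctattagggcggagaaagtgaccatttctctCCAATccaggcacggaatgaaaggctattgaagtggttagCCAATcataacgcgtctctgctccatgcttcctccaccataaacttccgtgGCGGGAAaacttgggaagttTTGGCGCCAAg
Ccnb2: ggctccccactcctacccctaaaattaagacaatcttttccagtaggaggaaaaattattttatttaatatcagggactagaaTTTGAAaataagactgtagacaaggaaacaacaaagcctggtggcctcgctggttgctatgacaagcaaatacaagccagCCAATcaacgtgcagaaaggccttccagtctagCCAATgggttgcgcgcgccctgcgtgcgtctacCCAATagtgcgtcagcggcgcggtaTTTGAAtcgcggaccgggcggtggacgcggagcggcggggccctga
Cdk1: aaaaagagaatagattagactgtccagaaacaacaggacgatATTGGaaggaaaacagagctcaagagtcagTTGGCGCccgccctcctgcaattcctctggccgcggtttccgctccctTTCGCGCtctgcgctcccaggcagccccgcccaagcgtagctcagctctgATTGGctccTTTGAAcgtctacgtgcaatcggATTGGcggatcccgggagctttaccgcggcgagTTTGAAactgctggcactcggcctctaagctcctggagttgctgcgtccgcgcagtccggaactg
Mki67: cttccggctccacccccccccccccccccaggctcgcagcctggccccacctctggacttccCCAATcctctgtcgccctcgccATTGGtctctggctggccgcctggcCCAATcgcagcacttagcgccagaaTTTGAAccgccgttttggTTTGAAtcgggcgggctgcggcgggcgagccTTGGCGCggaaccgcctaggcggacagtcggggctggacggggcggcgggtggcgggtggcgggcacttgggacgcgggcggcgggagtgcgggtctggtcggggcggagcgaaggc
Counted from the gene's start, the single E2F core of Cdc6 begins at base -138, and those of Cdk2 begin at bases -140 and -10. In Ccnb2 one CHR begins at base 5 after the start, behind 3 CCAAT boxes. Cdk1 and Mki67 hold E2F cores as well as 2 CHR copies each. Not all called genes had these layouts. The windows of Ccnd3, Ccne1, Mcm10, Orc6, Rrm2 and Bub1, also called in some comparison, held neither an E2F core nor the CHR.

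On the 12 arrays between 47.9% and 51.6% of non-control probe sets reached the threshold, and pairs of arrays correlated at 0.910 to 0.924 within groups and 0.907 to 0.923 between groups (Pearson, log2 signal), ranges that nearly coincide. Of the 11 adipocyte markers on the array, none was under the threshold on all arrays, and their summed linear signal was 184235 to 202104 at 12 h and 174501 to 221885 with DMSO. Such a sum rests most on the brightest markers. Taken singly, 7 of the 11 were called lower at 12 h (63.6%, against 14.6% of all genes) and 1 higher, with a median change of -0.51. Of 13 markers of undifferentiated preadipocytes or fibroblasts on the array, Cd34 alone was under the threshold on all arrays. All 13 together summed to 154071 to 169525 at 12 h and 137786 to 158562 with DMSO. Of 8 macrophage markers, only Ptprc and Itgam were under the threshold on every array, and of 6 endothelial markers, only Cdh5, Tek and Vwf were. The macrophage list summed to 1045 to 1292 at 12 h and 922 to 1073 with DMSO. The endothelial list summed to 173 to 294 at 12 h and 200 to 224 with DMSO. Only 2 of its 6 markers passed the filter on dim signals. Adipocyte and undifferentiated cell markers, and some of the other lists, thus reached the threshold. Which cells gave the cell cycle signals was not tested. In bulk RNA, fewer cells of a type and less RNA per cell cannot be told apart.

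After 12 h of berberine, 14 of the 41 genes (34.1%) were lower than with DMSO at an adjusted p under 0.05, where 14.6% of all genes tested were called lower. Cdt1 was the 1 gene called higher, where 13.7% of all genes were. Together these 15 calls made 36.6% of the set, against 28.2% of all genes. The median change of the 41 genes was -0.20 on the log2 scale, beside -0.01 over all genes, and 32 of the 41 lay below 0, as did 50.9% of all genes. The lower genes span G1 cyclins (Ccnd3, Ccne1, Ccne2), S and G2/M partners (Cdk2, Ccna2, Ccnb2), licensing proteins (Orc6, Cdc6, Mcm3, Mcm4, Mcm10), DNA synthesis (Rrm2, Uhrf1) and a proliferation marker (Mki67). Their decreases ran between 1.23-fold (Ccnb2) and 2.01-fold (Cdc6). At 6 h 7 genes were called (17.1%, against 14.2% of all genes), 4 lower (9.76%, against 6.98%) and 3 higher (7.32%, against 7.24%). The count of 7 was 3 when 6 h replicate 2 or DMSO replicate 1 was left out and 4 when DMSO replicate 2 was. At 3 h the single call was Ccne2, which was lower (2.44%, against 1.9% called either way and 0.816% called lower), and 0 were higher, where 1.09% of all genes were. At 3 h limma's unadjusted p was under 0.05 for 4 higher and 1 lower of the 41, where it was for 7.72% and 5.91% of all genes. The same rule gave 5 higher and 6 lower at 6 h (13.6% and 13% of all genes) and 1 higher and 15 lower at 12 h (18.5% and 19.5% of all genes). The shares at 3 h and 6 h were near those over all genes. A test of any difference among the 4 groups called 18 of the 41, where it called 25.1% of all genes.

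**Figure D1:**
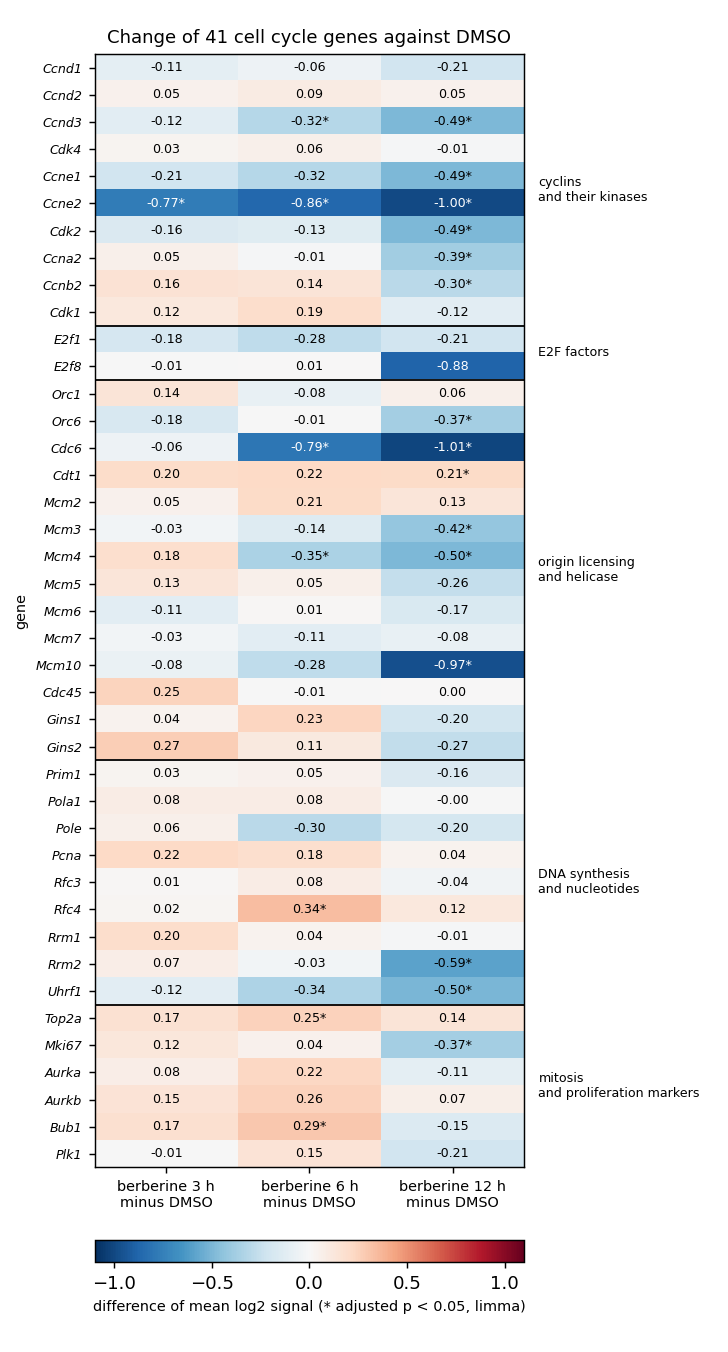
Each cell gives the difference of mean log2 signal against DMSO for 1 of the 41 genes at 3 h, 6 h or 12 h of berberine, with blue lower and red higher than DMSO, and a star marks an adjusted p under 0.05 (limma, n = 3 arrays a group). The 12 h column holds 15 stars, 14 of them on lower genes, while the 3 h column holds 1 star.

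Among the 10 cyclins and kinases tested, 6 fell at 12 h (60%, against 14.6% of all genes) and none rose, where 13.7% of all genes did. Ccne2, cyclin E2, the Cdk2 partner at the start of DNA synthesis, had log2 signals of 9.73, 9.62 and 9.57 with DMSO, 9.01, 8.78 and 8.83 at 3 h, 8.74, 8.82 and 8.78 at 6 h and 8.63, 8.44 and 8.86 at 12 h of berberine. All 9 berberine arrays lay below all 3 DMSO arrays. Its change was -0.77 (SE 0.11, adjusted p = 0.00102) at 3 h, -0.86 (SE 0.11, adjusted p = 7.54e-05) at 6 h and -0.995 (SE 0.11, adjusted p = 4.22e-06) at 12 h. It was thus 1.71-fold lower at 3 h and 1.99-fold lower at 12 h, and no difference between berberine times was called for it. Ccne1, the other cyclin E gene, had signals of 9.08, 8.92 and 8.85 with DMSO, 8.74, 8.86 and 8.60 at 3 h, 8.59, 8.68 and 8.63 at 6 h and 8.43, 8.33 and 8.60 at 12 h of berberine. Every 12 h array lay below every DMSO array, with a change of -0.49 (SE 0.12, adjusted p = 0.00365). Its changes at 3 h (-0.21, adjusted p = 0.447) and 6 h (-0.32, adjusted p = 0.0783) did not pass the test.

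Ccnd3, cyclin D3, a partner of Cdk4 and Cdk6 in G1, had signals of 10.70, 10.58 and 10.67 with DMSO, 10.64, 10.47 and 10.49 at 3 h, 10.38, 10.19 and 10.42 at 6 h and 10.23, 10.14 and 10.10 at 12 h of berberine. The 6 h and the 12 h arrays lay below all DMSO arrays. It fell by 0.32 on the log2 scale at 6 h (SE 0.08, adjusted p = 0.0126) and by 0.49 at 12 h (SE 0.08, adjusted p = 0.000158). The 6 h call was lost without 6 h replicate 2 (adjusted p = 0.0754) or DMSO replicate 1 (0.0561). With the mean of its probe sets, which adds one at or above the threshold on 4 of 12 arrays, neither call held, at changes of -0.45 at 6 h (adjusted p = 0.774) and -0.76 at 12 h (0.5) that were larger in size than those of the main probe set. Cdk2, the kinase that cyclins E and A activate, had signals of 8.86, 8.74 and 9.01 with DMSO, 8.79, 8.64 and 8.72 at 3 h, 8.71, 8.82 and 8.68 at 6 h and 8.29, 8.26 and 8.58 at 12 h of berberine. The 12 h arrays lay wholly below the DMSO arrays, and the change there was -0.49 (SE 0.12, adjusted p = 0.00439). The other D-type cyclins and Cdk4 did not pass the test at any time, with 12 h changes of -0.21 for Ccnd1, 0.05 for Ccnd2 and -0.01 for Cdk4.

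The cyclins of S phase and mitosis had no call against DMSO at 3 h or 6 h. Ccna2, cyclin A2, which works with Cdk2 and then Cdk1, had signals of 9.79, 9.93 and 9.91 with DMSO, 9.84, 10.01 and 9.94 at 3 h, 9.92, 9.90 and 9.77 at 6 h and 9.42, 9.47 and 9.58 at 12 h of berberine. At 12 h all 3 arrays lay below every other array, and the change from DMSO was -0.39 (SE 0.08, adjusted p = 0.00205). Its other probe set changed by -0.09 at 12 h (adjusted p = 0.55 over all probe sets), so the 2 probe sets of this gene disagree. Ccnb2, cyclin B2, a Cdk1 partner whose promoter with 2 CHR copies is given with the promoter windows, had signals of 9.33, 9.29 and 9.39 with DMSO, 9.47, 9.56 and 9.47 at 3 h, 9.38, 9.58 and 9.48 at 6 h and 9.03, 9.00 and 9.09 at 12 h of berberine. Every 12 h array again lay below every other array. The 12 h change from DMSO was -0.30 (SE 0.09, adjusted p = 0.0155), and it was lost without 12 h replicate 2 (adjusted p = 0.0514) or DMSO replicate 3 (0.0552). Cdk1, the kinase that drives entry into mitosis, had signals of 11.12, 11.29 and 11.08 with DMSO, 11.35, 11.21 and 11.28 at 3 h, 11.33, 11.51 and 11.22 at 6 h and 10.98, 11.17 and 10.98 at 12 h of berberine. Its 12 h and DMSO ranges overlapped, and the change of -0.12 did not pass (adjusted p = 0.338).

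Of the 2 E2F factors, neither passed the test. E2f8, an E2F that represses transcription, had signals of 5.93, 6.53 and 6.67 with DMSO, 6.50, 6.47 and 6.14 at 3 h, 6.73, 5.71 and 6.71 at 6 h and 5.83, 5.86 and 4.79 at 12 h of berberine. The 12 h arrays lay below all DMSO arrays by a mean of 0.88 log2 units with an adjusted p of 0.115. Its signals were near the threshold, which 10 of 12 arrays reached. E2f1, an activator of S phase genes, changed by -0.21 at 12 h (adjusted p = 0.476).

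**Figure D2:**
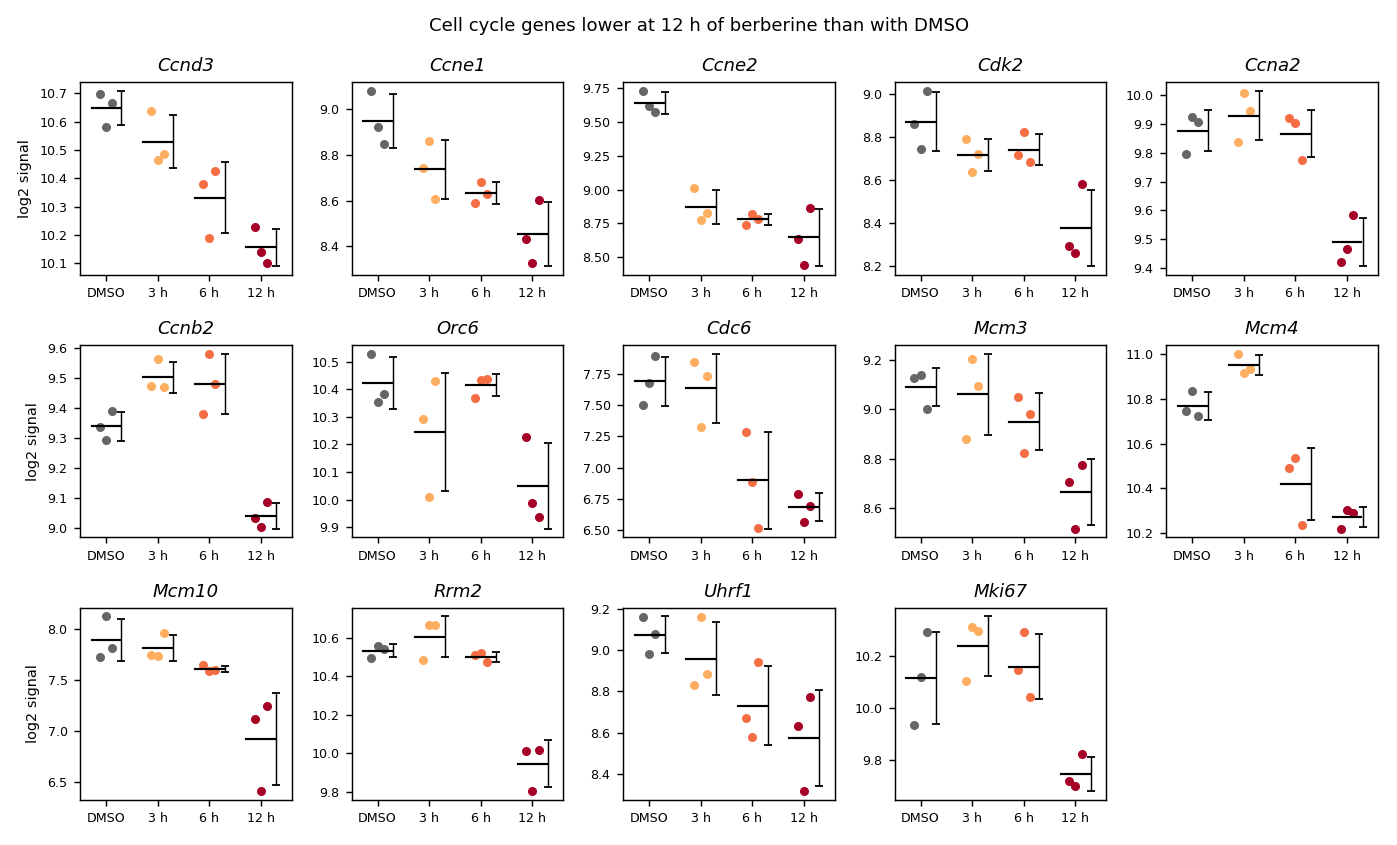
Log2 signals (vertical axes, each with its own range that does not start at 0) of the 14 genes called lower at 12 h than with DMSO, with 1 point an array, a bar at the group mean and whiskers of 1 SD (n = 3). The 12 h points lie below all DMSO points in every panel, while at 3 h this holds for Ccne2 alone.

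Of the 14 licensing and helicase genes, 5 fell (35.7%, against 14.6% of all genes) and 1 rose (7.14%, against 13.7%) at 12 h. Cdc6, which brings the Mcm ring to origins, had signals of 7.50, 7.68 and 7.89 with DMSO, 7.85, 7.32 and 7.73 at 3 h, 7.29, 6.89 and 6.52 at 6 h and 6.79, 6.57 and 6.70 at 12 h of berberine. The 6 h and 12 h arrays lay below all DMSO arrays. The change was -0.79 (SE 0.23, adjusted p = 0.0262) at 6 h and -1.01 (SE 0.23, adjusted p = 0.00276) at 12 h, a 2.01-fold decrease. Against DMSO the 6 h call was lost without 6 h replicate 2 (adjusted p = 0.0669), 6 h replicate 3 (0.114), DMSO replicate 2 (0.0591) or DMSO replicate 3 (0.0985), and without the filter on dim probe sets (0.0515). Orc6, the smallest subunit of the origin recognition complex, had signals of 10.53, 10.35 and 10.38 with DMSO, 10.29, 10.01 and 10.43 at 3 h, 10.37, 10.43 and 10.44 at 6 h and 10.23, 9.99 and 9.94 at 12 h of berberine. Its 12 h arrays lay below all DMSO arrays with a change of -0.37 (SE 0.10, adjusted p = 0.0105), a call lost without DMSO replicate 1 (adjusted p = 0.0562). Cdt1, the partner of Cdc6 in loading, had signals of 11.09, 11.14 and 11.24 with DMSO, 11.29, 11.35 and 11.43 at 3 h, 11.30, 11.51 and 11.31 at 6 h and 11.41, 11.29 and 11.41 at 12 h of berberine. All 9 berberine arrays lay above the DMSO arrays.

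The change of Cdt1 was 0.20 at 3 h (adjusted p = 0.201), 0.22 at 6 h (0.0528) and 0.21 at 12 h (0.0358), so the 3 times had nearly the same size and the 12 h test alone passed. That call was lost without 12 h replicate 1 or 3 or DMSO replicate 1 or 2 (adjusted p 0.0775 to 0.139) and with quantile normalization (0.053), no intensity trend (0.0755) or the mean of its probe sets (0.163). At 6 h Cdt1 passed without DMSO replicate 3 (adjusted p = 0.0426), with a stricter filter (0.0449) and with dim values raised to the threshold (0.0474). It passed there in no other alternative.

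Of the 6 subunits of the Mcm ring, Mcm3 and Mcm4 were called lower at 12 h, and differences between subunits were not tested. Mcm4 had signals of 10.74, 10.84 and 10.72 with DMSO, 11.00, 10.92 and 10.93 at 3 h, 10.49, 10.53 and 10.24 at 6 h and 10.22, 10.30 and 10.29 at 12 h of berberine. The 3 h arrays were all above DMSO, and the 6 h and 12 h arrays were all below it. Its change was 0.18 at 3 h (adjusted p = 0.304), -0.35 (SE 0.08, adjusted p = 0.00676) at 6 h and -0.50 (SE 0.08, adjusted p = 0.00013) at 12 h, and its 6 h level was 0.53 log2 units below its 3 h level (SE 0.08, adjusted p = 0.0018). That was the 1 call of the 41 genes between 6 h and 3 h, where 2.34% of all genes were called, 1.15% lower and 1.19% higher. Mcm3, whose promoter holds 3 E2F cores, had signals of 9.13, 9.14 and 9.00 with DMSO, 8.88, 9.20 and 9.10 at 3 h, 9.05, 8.82 and 8.98 at 6 h and 8.71, 8.52 and 8.78 at 12 h of berberine. At 12 h its arrays lay below all DMSO arrays with a change of -0.42 (SE 0.11, adjusted p = 0.00951). The call was lost without 12 h replicate 2 (adjusted p = 0.0508) and with the mean of its 4 probe sets that passed the filter (change -0.37, adjusted p = 0.305). Mcm10, which joins the helicase as replication begins, had signals of 7.72, 8.12 and 7.81 with DMSO, 7.74, 7.73 and 7.96 at 3 h, 7.64, 7.58 and 7.60 at 6 h and 7.11, 6.41 and 7.24 at 12 h of berberine.

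The 12 h arrays of Mcm10 lay below all others, replicate 2 lowest, and the change from DMSO was -0.97 (SE 0.21, adjusted p = 0.00184), a 1.95-fold decrease. With the mean of probe sets, which adds one that reached the threshold on 3 of 12 arrays, the change was -0.06 and not called (adjusted p = 0.947). Mcm2, Mcm5, Mcm6 and Mcm7 were not called at 12 h, with changes of 0.13, -0.26, -0.17 and -0.08. For Mcm5 and Mcm6 a second probe set, of a type that may match other transcripts, changed by -0.43 (adjusted p = 0.00558 over all probe sets) and -0.38 (0.0143), so these subunits cannot be called unchanged. The corresponding probe set of Mcm4 changed by -0.66, in the same direction as its main one. Orc1 and Cdc45 changed by 0.06 (adjusted p = 0.906) and 0.00 (0.994) at 12 h.

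The GINS subunits, which bind Cdc45 and the Mcm ring, were not called against DMSO at any time by the probe sets that stood for them, and each had a call between berberine times. Gins1 had signals of 9.46, 9.30 and 9.25 with DMSO, 9.43, 9.27 and 9.43 at 3 h, 9.49, 9.63 and 9.61 at 6 h and 9.35, 9.25 and 8.81 at 12 h of berberine. Its 6 h arrays were the 3 highest of the 12, and the 12 h level was 0.44 log2 units below the 6 h level (SE 0.12, adjusted p = 0.0417). That call was lost without any of the 3 replicates at 6 h or without replicate 2 or 3 at 12 h (adjusted p 0.0562 to 0.167). Gins2 had signals of 8.74, 8.77 and 8.74 with DMSO, 8.94, 9.12 and 9.00 at 3 h, 8.78, 9.17 and 8.62 at 6 h and 8.67, 8.23 and 8.54 at 12 h of berberine. Its 12 h arrays lay below all DMSO and all 3 h arrays, with a change of -0.27 against DMSO (adjusted p = 0.168) and of -0.54 (SE 0.14, adjusted p = 0.0118) against 3 h. Without 12 h replicate 2 or 3 h replicate 2 the change against 3 h was not called (adjusted p = 0.0691 and 0.0541). A second probe set of Gins2, above the threshold on all 12 arrays, changed by -0.62 at 12 h against DMSO (adjusted p = 0.0472 over all probe sets), with 12 h and DMSO ranges that overlapped.

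Of the 9 DNA synthesis and nucleotide genes tested, 2 fell at 12 h, a share (22.2%) near the 14.6% of all genes. Rrm2, the small subunit of ribonucleotide reductase, which makes the building blocks of DNA, had signals of 10.50, 10.56 and 10.54 with DMSO, 10.48, 10.67 and 10.67 at 3 h, 10.51, 10.52 and 10.47 at 6 h and 10.01, 9.80 and 10.02 at 12 h of berberine. The 12 h arrays lay below every other array. The change was -0.59 (SE 0.08, adjusted p = 2.01e-05) against DMSO, a 1.50-fold decrease, beside 0.07 at 3 h and -0.03 at 6 h, neither of which passed. A probe set of Rrm2 that may match other transcripts changed by -0.41 at 12 h (adjusted p = 0.00089 over all probe sets). Another, above the threshold on all 12 arrays, changed by -0.23 and was not called (0.323). Rrm1, the large subunit, changed by -0.01 at 12 h (adjusted p = 0.951). Uhrf1, which marks newly copied DNA for maintenance methylation, had signals of 9.16, 8.98 and 9.08 with DMSO, 8.83, 9.16 and 8.88 at 3 h, 8.67, 8.58 and 8.94 at 6 h and 8.63, 8.32 and 8.77 at 12 h of berberine. Its 12 h arrays lay below all DMSO arrays with a change of -0.50 (SE 0.14, adjusted p = 0.0104). The call was lost without 12 h replicate 2 (adjusted p = 0.0645) and with the mean of its probe sets (change -0.64, adjusted p = 0.137).

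Rfc4, a subunit of the clamp loader, had signals of 10.43, 10.74 and 10.46 with DMSO, 10.58, 10.61 and 10.51 at 3 h, 10.88, 10.84 and 10.93 at 6 h and 10.71, 10.71 and 10.57 at 12 h of berberine. The 6 h arrays lay above all DMSO arrays, and Rfc4 was 1.27-fold higher at 6 h, a change of 0.34 (SE 0.08, adjusted p = 0.0103). The call was lost without DMSO replicate 1 (adjusted p = 0.0614) and with the mean of its probe sets (0.0667). Pcna, the sliding clamp that Rfc4 helps to load, changed by 0.22 at 3 h (adjusted p = 0.282) and 0.04 at 12 h (0.786). Prim1, Pola1, Pole and Rfc3, the primase, polymerase and clamp loader genes, had no call, and their 12 h changes ran between -0.20 (Pole) and -0.00 (Pola1). The 12 h arrays of Prim1 lay below all DMSO arrays without passing the test (adjusted p = 0.244).

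The 6 mitotic genes had a median change of 0.24 on the log2 scale at 6 h and -0.13 at 12 h, with 2 called higher at 6 h (33.3%, against 7.24% of all genes) and 1 called lower at 12 h (16.7%, near the 14.6% of all genes). Both 6 h calls, Bub1 and Top2a, were lost under alternatives given with them. Mki67, which encodes the proliferation marker Ki-67 and has a promoter with 2 CHR copies, had signals of 9.94, 10.12 and 10.29 with DMSO, 10.11, 10.31 and 10.30 at 3 h, 10.15, 10.29 and 10.04 at 6 h and 9.72, 9.70 and 9.82 at 12 h of berberine. The 12 h arrays lay below all others. Its 12 h change was -0.37 (SE 0.10, adjusted p = 0.00796) against DMSO, and without DMSO replicate 3 it missed the threshold (adjusted p = 0.0506). Bub1, a kinase of the spindle checkpoint, had signals of 9.19, 9.06 and 9.19 with DMSO, 9.31, 9.36 and 9.30 at 3 h, 9.41, 9.46 and 9.45 at 6 h and 8.93, 8.93 and 9.15 at 12 h of berberine. All 3 h and 6 h arrays lay above the DMSO arrays, and the 12 h range overlapped that of DMSO. The 6 h change was 0.29 (SE 0.09, adjusted p = 0.0411) and the 12 h change was -0.15 (adjusted p = 0.265). Leaving out any single array of the 6 h or DMSO groups ended the 6 h call (adjusted p 0.0649 to 0.131). Top2a, which untangles copied chromosomes, had signals of 10.43, 10.23 and 10.58 with DMSO, 10.60, 10.52 and 10.62 at 3 h, 10.70, 10.73 and 10.58 at 6 h and 10.58, 10.55 and 10.54 at 12 h of berberine.

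The 6 h and DMSO ranges of Top2a overlapped, and its 6 h change was 0.25 (SE 0.08, adjusted p = 0.0463). That call was lost without 6 h replicate 1 or 2 or DMSO replicate 1 or 2 (adjusted p 0.0981 to 0.203), with no intensity trend (0.0989) and with the mean of its probe sets (0.197). The mitotic kinase genes Aurka, Aurkb and Plk1 changed by 0.22, 0.26 and 0.15 at 6 h and by -0.11, 0.07 and -0.21 at 12 h, and none of these passed the test.

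Set against 6 h, the 12 h arrays had 8 of the 41 genes called lower (19.5%), where 3.18% of all genes were called lower, and 0 called higher, where 2.5% were. In either direction 5.69% of all genes were called. The test is limma's, and an unadjusted p under 0.05 was reached by 17 lower and 0 higher genes of the 41, and by 10.6% (lower) and 8.6% (higher) of all genes. The 8 were Ccna2, Ccnb2, Cdk1, Orc6, Gins1, Rrm2, Mki67 and Bub1. The median change of the 41 was -0.18 on the log2 scale, beside -0.01 over all genes, and 36 of the 41 lay below 0, as did 52.8% of all genes. In 15 of the 41 the 12 h arrays lay wholly below the 6 h arrays (36.6%), where 12.7% of all genes did. Rrm2 had the largest called change, -0.56 (SE 0.08, adjusted p = 0.000404), followed by Bub1 at -0.44 (SE 0.09, adjusted p = 0.00882) and Ccnb2 at -0.44 (SE 0.09, adjusted p = 0.00596). The promoters of Ccnb2, Cdk1 and Mki67, given with the promoter windows, held the CHR with a CCAAT box. They were the 3 that did among the 6 of these genes with a window, beside 6 of 26 other tested genes. The windows of Orc6, Rrm2 and Bub1 held no CHR. Against DMSO at 12 h the split ran the other way, with both elements in 2 of 11 genes called lower and 7 of 21 others. A link between promoter elements and changes was not tested.

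The calls of Rrm2, Bub1 and Ccnb2 between 12 h and 6 h held in all 16 alternatives, and the other 5 did not. Ccna2 (change -0.38) lost its call without 6 h replicate 1 or 2 or 12 h replicate 1 (adjusted p 0.0508 to 0.0556) and with the mean of its probe sets (0.212). Mki67 (change -0.42) lost it without 6 h replicate 2 or 12 h replicate 1 or 2 (adjusted p 0.0569 to 0.0937). Cdk1 (change -0.31) lost it without 6 h replicate 1 or 2 or 12 h replicate 1 or 3 (adjusted p 0.0744 to 0.181). Orc6 (change -0.36) lost it without any 6 h replicate or without 12 h replicate 2 or 3 (adjusted p 0.0767 to 0.15). With no intensity trend, Mki67 (adjusted p = 0.076), Cdk1 (0.127), Orc6 (0.135) and Gins1 (0.119) were not called either. Of the 16 alternatives, 7 ended the Cdk1 call, 10 the Orc6 call and 11 the Gins1 call. The count of 8 became 3 with 6 h replicate 2 left out, 4 with 6 h replicate 1 left out and 5 with 12 h replicate 1 or 12 h replicate 2 left out. Over the whole array 690 genes were called, and 376 with 6 h replicate 2 left out.

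Against 3 h, 11 genes were lower at 12 h (26.8%, where 9.71% of all genes were called lower and 17.7% either way) and 0 were higher (8.01% of all genes), with 38 of the 41 below 0, as were 53.5% of all genes, and a median of -0.23, beside -0.02 over all genes. At an unadjusted p under 0.05, limma gave 17 lower and 0 higher genes of the 41, where 16.7% and 13.2% of all genes passed. In 17 of the 41 the 12 h arrays lay wholly below the 3 h arrays (41.5%, where 18.6% of all genes did). The largest changes were those of Cdc6 (-0.95 (SE 0.23, adjusted p = 0.00687)), Mcm10 (-0.89 (SE 0.21, adjusted p = 0.00572)) and Mcm4 (-0.68 (SE 0.08, adjusted p = 1.07e-05)). Ccnd3, Ccna2, Ccnb2, Mcm3, Gins2, Rrm2, Mki67 and Bub1 made up the rest, with changes between -0.32 (Bub1) and -0.66 (Rrm2). Mcm3 was not called without 3 h replicate 2 or 3 or 12 h replicate 2 (adjusted p 0.0688 to 0.11), and Bub1 was not called without 3 h replicate 1 or 2 or 12 h replicate 1 or 2 (adjusted p 0.0543 to 0.0834). The mean of probe sets ended the calls of Ccnd3 (adjusted p = 0.729), Mcm10 (0.579) and Mcm3 (0.192).

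**Figure D3:**
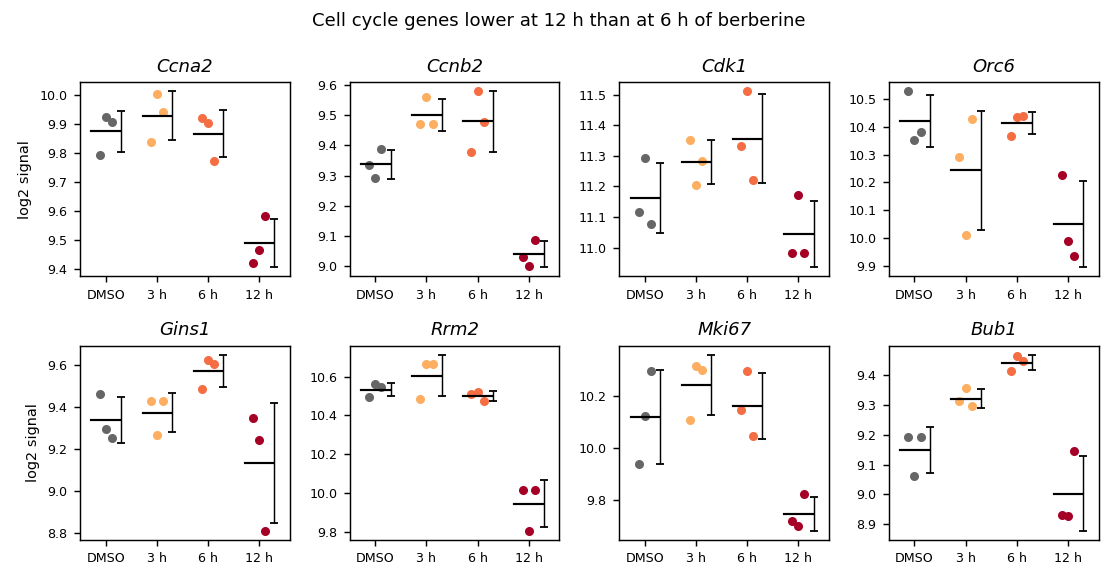
Log2 signals (vertical axes, each with its own range that does not start at 0) of the 8 genes called lower at 12 h than at 6 h of berberine, with 1 point an array, a bar at the group mean and whiskers of 1 SD (n = 3). The 12 h points lie below the 6 h points in all 8 panels.

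Over the whole set, the 12 h arrays lay wholly below DMSO in 17 of the 41 genes (41.5%, where 20.3% of all genes did) and wholly above it in 2 (4.88%, where 19.1% did), Cdt1 and Mcm2. The 3 genes that lay wholly below without a call were E2f8, Gins2 and Prim1. At 6 h the counts were 9 wholly below (14.3% of all genes) and 7 wholly above (15.7% of all genes). At 3 h they were 1 wholly below (8.56% of all genes) and 5 wholly above (10.5% of all genes). Of the 14 genes lower at 12 h, Ccne2 was called lower at all 3 times, Ccnd3, Cdc6 and Mcm4 were called lower at 6 h and 12 h, and the other 10 had no call at 3 h or 6 h.

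**Figure D4:**
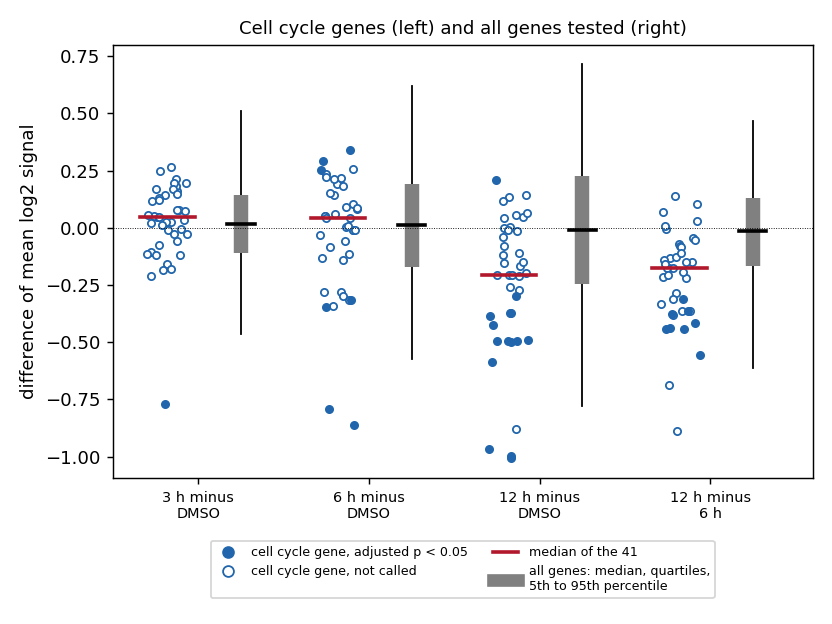
Differences of mean log2 signal (vertical axis) for the 41 cell cycle genes (circles, filled where the adjusted p is under 0.05, with a red bar at their median) beside all 12136 genes tested (grey box from the lower to the upper quartile, black bar at the median, line between the outer percentiles named in the key). The medians of the 41 were 0.05, 0.04 and -0.20 at 3 h, 6 h and 12 h against DMSO and -0.18 at 12 h against 6 h.

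Other genes of the same pathways were grouped into 8 lists that hold none of the 43. These lists were also chosen with earlier results of these data known. The CDK inhibitors moved both ways. Cdkn2b, an inhibitor of Cdk4 and Cdk6, changed by 0.66 (SE 0.08, adjusted p = 2.24e-05) at 6 h and 0.76 (SE 0.08, adjusted p = 1.07e-06) at 12 h, and its signals were 11.51, 11.55 and 11.44 at 12 h against 10.63, 10.86 and 10.73 with DMSO. Its relatives Cdkn2c and Cdkn2d were lower at 12 h, by 0.54 (adjusted p = 3.58e-05) and 0.28 (0.0157) log2 units, and the Cdkn2d call was lost without 12 h replicate 2 (adjusted p = 0.0792), DMSO replicate 1 (0.0689) or DMSO replicate 3 (0.052). The other 4 of the 7 tested inhibitors were not called. Of 17 regulators of the RB, E2F and DREAM group, 3 were lower at 12 h (17.6%, near the 14.6% of all genes) and 0 higher. Tfdp1, the dimer partner of E2F proteins, fell by 0.56 (adjusted p = 4.87e-06), and Myc, a driver of proliferation, fell by 0.44 at 6 h (adjusted p = 0.00372) and 0.57 at 12 h (0.000133). The third was Tfdp2, at -0.45 (adjusted p = 0.00671), whose sign turned with the mean of its probe sets. Of 11 other G1 genes, 4 were lower (36.4%) and 1 higher (9.09%) at 12 h, among them Cdk6 at -0.56 (adjusted p = 0.000119) and Skp2, which marks a CDK inhibitor for breakdown, at -0.57 (0.000937). Neither held with the mean of probe sets (adjusted p = 0.0536 and 0.893).

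Of 32 other replication genes, 10 were lower (31.2%, against 14.6% of all genes) and 3 higher (9.38%, against 13.7%) at 12 h. Cdc7, the kinase that fires origins, changed by -0.78 (adjusted p = 0.00753, and 0.104 with the mean of its probe sets). Rfc5, a clamp loader subunit, changed by -0.54 (adjusted p = 0.000185). Against these, Orc4 of the origin recognition complex was 0.64 higher (adjusted p = 5.5e-06), a sign that turned with the mean of its probe sets. Of 9 nucleotide supply genes, 4 were lower (44.4%) and 2 higher (22.2%) at 12 h. Dtymk, thymidylate kinase, fell by 0.42 (adjusted p = 2.16e-05), and Rrm2b, the ribonucleotide reductase subunit that p53 induces, rose by 0.36 (0.00468), opposite to Rrm2. Of 12 checkpoint genes, 2 were lower (16.7%, near the share of all genes), and Brca1, a DNA repair protein, fell by 1.14 at 12 h (adjusted p = 4.8e-06), which is 2.21-fold.

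Of 37 other mitosis genes, 5 were higher (13.5%) and 0 lower at 6 h, where 7.24% of all genes were called higher, and 2 were higher (5.41%) and 6 lower (16.2%) at 12 h. Bub1b, a spindle checkpoint kinase related to Bub1, changed by 0.59 (SE 0.13, adjusted p = 0.00511) at 6 h. Cenpe, a kinesin of the kinetochore, changed by 0.64 at 6 h (adjusted p = 0.0062) and 0.64 at 12 h (0.00258), and neither held with the mean of its probe sets (adjusted p = 0.136 and 0.102). Cenpa, the histone of centromeres, fell by 0.44 at 12 h (adjusted p = 0.00068). The 13 cohesin and condensin genes were mixed at 12 h, with 3 higher (23.1%) and 4 lower (30.8%). Smc4, a condensin ATPase, was higher at 3 h (0.30, adjusted p = 0.0174), 6 h (0.34, 0.00165) and 12 h (0.36, 0.000369), and the 3 h call was lost in 7 of 16 alternatives. Against this, Ncapd3, another condensin subunit, was lower at 12 h (-0.59, adjusted p = 0.00179). Of the 8 lists, the median change at 12 h was below 0 in 7 and ran between -0.30 (nucleotide supply) and 0.05 (checkpoint), beside -0.01 over all genes.

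**Figure D5:**
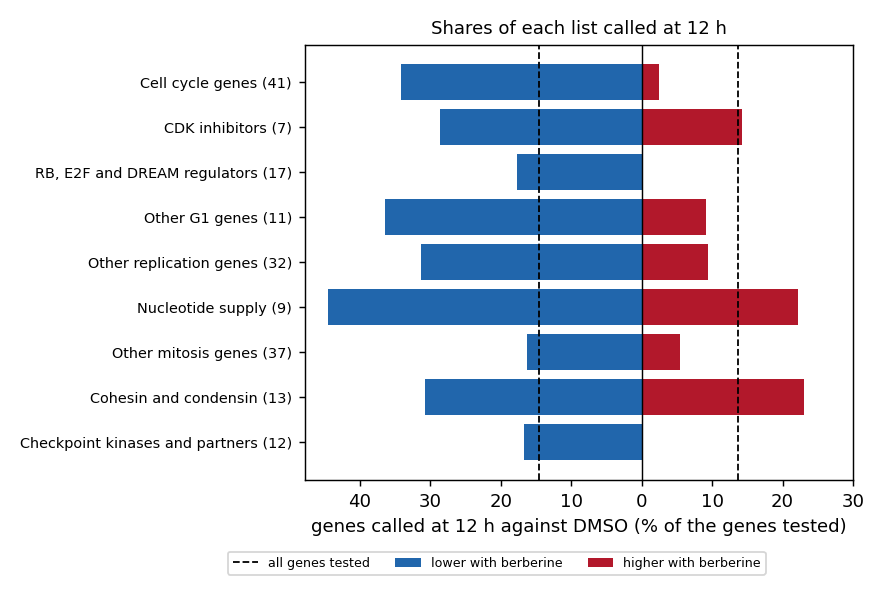
Bars give the share of each list's tested genes (number in brackets) called lower (blue, left) or higher (red, right) at 12 h of berberine against DMSO, and dashed lines give the shares over all genes tested, 14.6% lower and 13.7% higher. The 41 cell cycle genes had 34.1% lower and 2.44% higher.

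Of 11 adipocyte markers, 7 were lower (63.6%, against 14.6% of all genes) and 1 higher at 12 h, with a median of -0.51. Of 12 tested markers of undifferentiated preadipocytes or fibroblasts, 2 were lower (16.7%) and 3 higher (25%, against 13.7% of all genes), with a median of 0.05. Of 5 tested macrophage markers 1 was higher, and neither of the 2 tested endothelial markers was called. The part of the markers in the cell cycle changes was not tested.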

How the data were processed

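Total RNA of 12 samples of 3T3-L1 cells was hybridised to 12 one-colour Affymetrix mouse arrays of 45101 probe sets, 64 of them controls. The deposited values are log2 signals made by the authors with MAS5, per the submitters' processing notes, and the MAS5 version is not given in the sources used here. On the linear scale each array's trimmed mean was 500.004, so the arrays had been scaled to one level before deposit. No detection calls were used. The number of arrays limits the precision.

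Of 45037 non-control probe sets, 34945 carried 1 gene symbol, 932 several and 9160 none. A probe set was kept if at least 3 of 12 arrays reached the median of all non-control values (5.77), and the brightest kept probe set stood for its gene, those marked as cross-matching only where no other existed. Group means were fitted over all 12 arrays with limma 3.58.1 in R 4.3.3 (8 residual degrees of freedom, intensity trend), and two-sided p-values were adjusted by Benjamini-Hochberg over 12136 genes. Calls were made at adjusted p-values under 0.05. The code was tested on simulated data. Genes called in any comparison are given with every array's value, and of the other lists up to 4 called genes a comparison were eligible to be named. The members and lists were chosen with earlier results of these data known. Alternatives were quantile normalization, other filters, no intensity trend, the mean of a gene's probe sets, each probe set by itself, a fit of the 2 groups alone, a replicate block and leaving out each array; using cross-matching probe sets was added after seeing the data.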

Additional observations from a re-analysis of the deposited data

Results flagged for a closer look

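The results given here are tests of a difference between berberine times, which share no DMSO array and which singled out 20 differences among the 41 cell cycle genes. Between 6 h and 3 h, Mcm4 was lower at 6 h by a log2 change of -0.53 (SE 0.08). Between 12 h and 6 h, the cyclin and kinase genes changed by -0.38 (SE 0.08) for Ccna2, -0.44 (SE 0.09) for Ccnb2 and -0.31 (SE 0.08) for Cdk1. In the same comparison the replication genes changed by -0.36 (SE 0.10) for Orc6, -0.44 (SE 0.12) for Gins1 and -0.56 (SE 0.08) for Rrm2. The mitotic genes changed by -0.42 (SE 0.10) for Mki67 and -0.44 (SE 0.09) for Bub1. Adjusted p-values of these 8 lay between 0.000404 and 0.0439 (limma).

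Between 12 h and 3 h, the cyclin genes changed by -0.37 (SE 0.08) for Ccnd3, -0.44 (SE 0.08) for Ccna2 and -0.46 (SE 0.09) for Ccnb2. The licensing and helicase genes changed by -0.95 (SE 0.23) for Cdc6, -0.39 (SE 0.11) for Mcm3, -0.68 (SE 0.08) for Mcm4, -0.89 (SE 0.21) for Mcm10 and -0.54 (SE 0.14) for Gins2. Rrm2 changed by -0.66 (SE 0.08), Mki67 by -0.49 (SE 0.10) and Bub1 by -0.32 (SE 0.09). Adjusted p-values of these 11 lay between 1.07e-05 and 0.022 (limma). All 20 differences were negative, the later time being lower. The 8 differences from 6 h and the 11 from 3 h rest on the same 12 h arrays, so they are not independent of each other. Ccna2, Ccnb2, Rrm2, Mki67 and Bub1 are in both comparisons. The arrays that end individual calls are named beside them in the results.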

How the results depend on the processing

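Counts of the 41 genes called and their median changes were recomputed under every alternative, and 172 of 192 values stayed within 1.5 times the count or within the replicate spread. At 6 h against DMSO the count was 7 and fell to 4 without the filter on dim probe sets and to 4 with the mean of probe sets. Between 6 h and 3 h it was 1, and 2 with quantile normalization, with a stricter filter or with the 2 groups alone. Between 12 h and 6 h it was 8, falling to 4 with no intensity trend, and likewise to 4 with averaged probe sets. Leaving out one array gave 1 to 1 call at 3 h, 3 to 6 at 6 h, 12 to 15 at 12 h, 1 to 1 between 6 h and 3 h, 3 to 7 between 12 h and 6 h, and 9 to 13 between 12 h and 3 h. At 6 h against DMSO, where 7 were called, the count was 3 with 6 h replicate 2 left out, 3 with DMSO replicate 1 left out and 4 with DMSO replicate 2 left out. The medians then ran 0.01 to 0.07 at 3 h, -0.019 to 0.062 at 6 h, -0.23 to -0.16 at 12 h, -0.071 to -0.011 between 6 h and 3 h, -0.24 to -0.16 between 12 h and 6 h, and -0.26 to -0.17 between 12 h and 3 h. The 6 h median was therefore not settled in sign, at -0.019 without 6 h replicate 2 and -0.018 without DMSO replicate 1.

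Of 1440 values for single genes, 1248 kept direction and call, 188 lost the call and 4 turned sign, all 4 with the mean of probe sets: Orc4 at 6 h (-0.21) and 12 h (-0.26), Orc3 at 6 h (-0.11) and Tfdp2 at 12 h (0.13). The cause was not tested. Over all genes, no intensity trend left 93 calls in place of 231 at 3 h, 60 in place of 284 between 6 h and 3 h and 296 in place of 690 between 12 h and 6 h. The mean of probe sets left 114 at 3 h, 1099 in place of 1726 at 6 h and 146 between 6 h and 3 h. Leaving out one array left as few as 117 calls at 3 h, 1116 at 6 h, 85 between 6 h and 3 h and 376 between 12 h and 6 h. With the brightest probe set of any type, chosen after seeing the data, Mcm5 was called lower at 12 h (-0.43, adjusted p = 0.0042).

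The labels' replicate numbers were also entered as a block. Residuals of arrays with the same number correlated at -0.04 to 0.03 in 18 pairs, none over 0.1. No effect shared by number was thus seen over all genes. Whether arrays with the same number came from paired cultures cannot be told from these correlations. With the replicate block the counts of the 41 called were 1 at 3 h, 5 at 6 h, 15 at 12 h, 1 between 6 h and 3 h, 8 between 12 h and 6 h and 12 between 12 h and 3 h. Top2a (adjusted p = 0.0531) and Bub1 (0.0519) were not called at 6 h under the block. Signals near the threshold, such as those of E2f8, limit what 3 arrays a group can show, and no gene with all probe sets under it can be compared.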
